A study of Mus musculus with 12 samples.

Results

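The basal turn of the cochlea was compared between 35delG homozygous and wild-type mice by RNA-seq of 2 libraries for each genotype, taken by their labels from the 12 libraries of the series. Of the 37432 genes in the deposited table, 14636 reached 1 FPKM (fragments scaled to transcript length and to the mapped fragments of the library) in at least 2 of these 4 libraries and were tested. The cochleae came from mice at P14 and had been cut into 3 equal sections, the apical, middle and basal turns. The homozygous mice, *Gjb2* 35delG/35delG, were males grown by tetraploid complementation from homozygous embryonic stem cells, themselves derived from blastocysts, in which the stem cells form the whole body of the pup. The homozygous mice were delivered by surgery and raised by foster mothers of the ICR stock, while wild-type males of that age were bought, so genotype and the origin of the mice cannot be told apart. The study lists several homozygous stem cell lines, but the number of mice or cochleae in a library, and the line they came from, are not given in the sources used here. The study calls the repeats biological without saying whether they are separate animals, so each p-value measures the spread between libraries, taken over all 6 groups of genotype and turn. Pairs of values are given in the order of repeats 1 and 2.

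*Gjb2* and *Gjb6* encode the connexins of the large gap junctions that couple supporting cells of the organ of Corti, and also fibrocytes of the lateral wall. Through these channels pass potassium ions and the messengers that carry calcium waves, and loss of GJB2 is a common cause of inherited deafness. The basal turn hears high tones, and a piece of it holds hair cells, supporting cells, the stria vascularis, ligament fibrocytes, spiral ganglion neurons with their Schwann cells, blood and bone, whose RNA is measured together.

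In the homozygous basal pieces, genes of hair cells and of the tectorial membrane were among the largest falls and genes of nerve fibres and myelin among the rises. *Ush1c*, a scaffold of the hair bundle, had 32.4 and 42.5 scaled FPKM in the wild-type repeats and 0.390 and 0.102 in the homozygous ones. Its log2 fold change was −4.94 ± 0.38 (standard error, n = 2 libraries per genotype, adjusted p = 0.000780 from limma). The spread behind each standard error is taken over all 6 groups of genotype and turn. *Ush1c* shares exon sequence with *Gm9860* on the opposite strand. The myelin gene *Prx* had 34.9 and 19.02 in wild-type repeats and 128 and 151 in homozygous ones (2.38 ± 0.26, adjusted p = 0.00278). In both genes the homozygous libraries lay far outside the range of the wild-type ones. In bulk pieces of tissue, fewer cells of a type and less RNA in each cell cannot be told apart. On stained tissue at P14, the study reports homozygous hair cells and their neighbouring supporting cells as intact.

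*Gjb2* spans 57098600 to 57104702 of chromosome 14 (GRCm38, minus strand) in 2 exons. The run of 5 G that ends at coding position 35 lies in exon 2, and coding position 35 is at 57100715. The 30 bases of the coding strand around it, coding positions 19 to 48, are shown because the homozygous mice are named for the loss of a G from this run, in capitals here. The guide RNA of the study's oligo table, 20 bases long, matches the other strand and covers all 5 bases of the run, and its adjoining PAM, the 3 bases that Cas9 needs beside its target, is in capitals.
coding strand, chr14:57100702-57100731: cagagcatcctcGGGGGtgtcaacaaacac
guide with PAM, chr14:57100701-57100723: agtgtttgttgacacccccgAGG
Both sequences are of the reference, and the FPKM count every fragment of the gene whichever allele it carries. *Gjb2* had 434 and 256 scaled FPKM in wild-type repeats 1 and 2 and 126 and 58.6 in homozygous repeats 1 and 2. Both homozygous libraries were below both wild-type ones, and the repeats of each genotype were themselves apart. The log2 fold change of −1.94 ± 0.47 had an adjusted p of 0.0219 and did not pass the threshold of 0.01. Its partner *Gjb6* had 292 and 271 in wild-type repeats and 166 and 154 in homozygous ones (log2 fold change −0.81, adjusted p = 0.0699), again without overlap and without passing the test.

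Before the results, the libraries were checked against each other. All 12 had the expression of male mice, with *Xist*, which female cells express, at most 0.0746 scaled FPKM and the Y-linked *Ddx3y* at least 18.1. The FPKM of wild-type repeats 1 and 2 summed to 331399 and 408162 and those of the homozygous repeats to 323394 and 373613. Genes at 1 FPKM or more numbered 13779 and 14529 in the wild-type pair and 14170 and 13786 in the homozygous pair. Transcripts of the mitochondrial genome took 8.86% and 17.1% of the sum in the wild-type pair and 8.78% and 12.1% in the homozygous pair. The 10 highest genes took 11.8% and 19.7% in the wild-type pair and 12.2% and 16.4% in the homozygous pair. In both genotypes repeat 2 had the higher sum, the higher mitochondrial share and the higher share of the top genes. No steps of whole reads are visible in the values, whose smallest above 0 is 1e-06, so the depth of each library is unknown and a gene with no value is only said to be listed at 0. Among genes named below, *Atp1b1*, *Cdkn1a*, *Chrna10*, *Eps8l2* and *Thra* also share exon sequence with a gene on the opposite strand, as do *Nefl* and *Nefm* with each other, and *Gata3*, *Mobp* and *Spp1* with a gene on the same strand.

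Wild-type repeat 2 lay over 2-fold above repeat 1 in 1439 genes (9.83%) and over 2-fold below it in 611 (4.17%). Homozygous repeat 1 lay over 2-fold above repeat 2 in 540 (3.69%) and below it in 421 (2.88%). Wild-type repeat 1 held little RNA of neurons and melanocytes. *Snap25*, a SNARE protein of nerve endings, had 2.17 and 158 scaled FPKM in wild-type repeats 1 and 2, and *Dct*, a melanocyte enzyme, had 1.03 and 442. *Bpifa1*, a secreted protein of airway and middle ear lining, had 7.82 and 3416 in wild-type repeats and 0.125 and 0.102 in homozygous ones, so it was high in wild-type repeat 2 alone. The bone protein gene *Bglap* had 4.11 and 1102 in wild-type repeats and 53.4 and 52.5 in homozygous ones. Each of these genes put wild-type repeat 2 far above repeat 1. The homozygous repeats differed most in the lateral wall. *Kcne1*, a potassium channel subunit of strial marginal cells, had 35.9 and 0 in homozygous repeats 1 and 2, and *Otos*, a secreted protein of ligament fibrocytes, had 848 and 4.43. Homozygous repeat 2 thus held little RNA of the stria and the spiral ligament, and the share of these tissue differences in the results below was not tested.

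**Figure D1:**
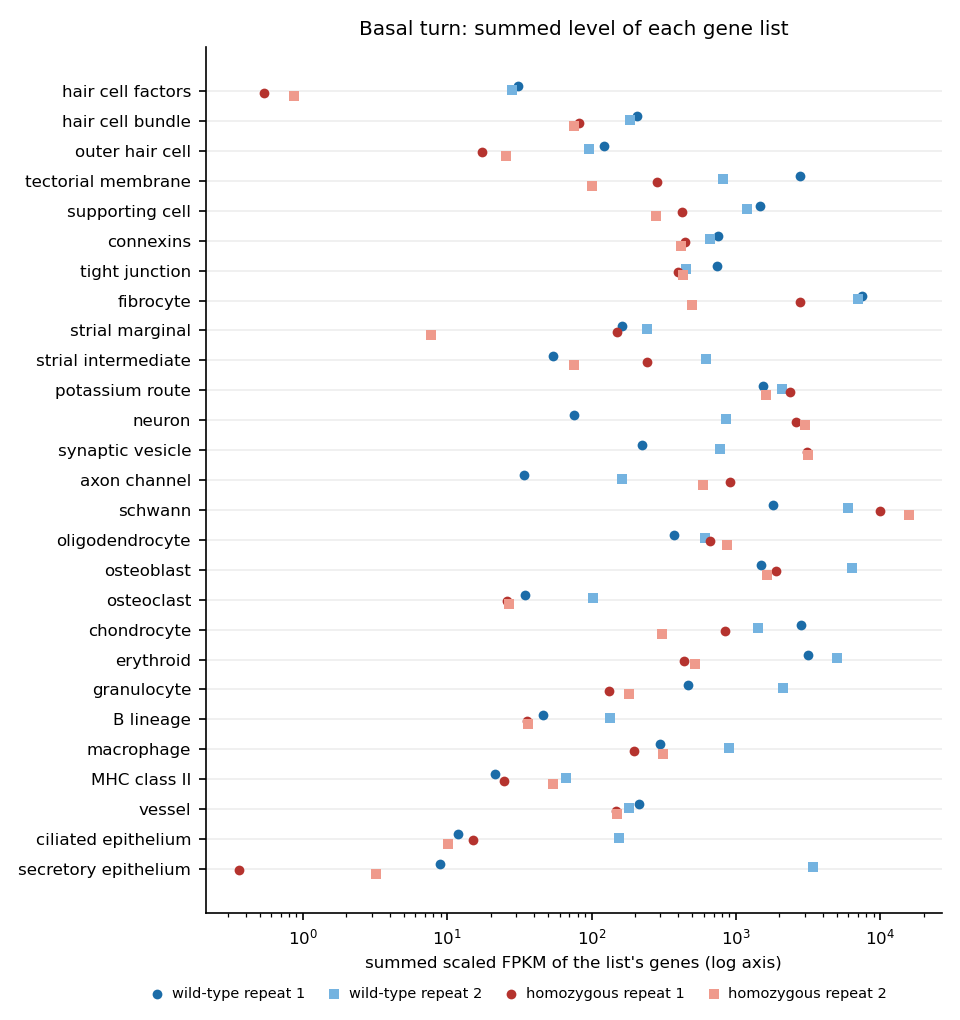
Summed scaled FPKM of the genes in each list (log axis) in the 4 basal libraries, with wild-type in blue, homozygous in red, circles for repeat 1 and squares for repeat 2. Hair cell factors sum to 30.8 and 28.1 in the wild-type pair and 0.538 and 0.868 in the homozygous pair, while for neurons wild-type repeat 1 (75.0) stands far below wild-type repeat 2 (848) and both homozygous libraries.

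The genotypes were compared on log2(scaled FPKM + 1) in 1 limma fit with a mean for each genotype and turn, and homozygous libraries were also set against each wild-type repeat alone. Calls required an adjusted p below 0.01 together with a change over 2-fold, and each count below follows this rule. Counts of list members are to be read against the shares over all genes tested given in this paragraph. In a short list 0 calls do not show a lack of difference. Genes that passed the filter through a single genotype are by that choice favoured to be higher in it. Falls such as *Thrb*, *Gm30191*, *Dynlrb2*, *Oc90* and *Bpifa1* and rises such as *Eno1b* and *Cpne9* are among them. Where 1 basal library was left out, the filter was applied anew to those remaining. Genes under 1 FPKM in both homozygous libraries were then not tested against a single wild-type repeat. Without a homozygous library the same held for genes under 1 FPKM in both wild-type ones. In the basal turn 435 genes were called higher in homozygotes (2.97% of those tested) and 309 lower (2.11%), which became 611 and 165 with libraries rescaled to an equal sum. The balance turned to 289 higher and 319 lower with a pseudocount of 0.1, 258 and 294 with 0.01 and 6 and 11 with library weights. Without homozygous basal repeat 1 it was 31 and 129, and without repeat 2 it was 52 and 23. In 148 of the 744 genes the wild-type repeats were over 2-fold apart, 78 called higher with repeat 2 above repeat 1 and 67 called lower with repeat 1 above repeat 2. Against wild-type repeat 1 alone, 1611 of 13903 genes were called, 986 higher (7.09%) and 625 lower (4.50%). Against wild-type repeat 2 alone, 38 of 13984 were called, 21 higher (0.150%) and 17 lower (0.122%). The calls against both repeats shared 31 genes, and both comparisons use the same homozygous libraries. Without any test, both homozygous libraries lay over 2-fold above each wild-type repeat in 683 genes (4.67%) and below each in 467 (3.19%), of which 345 and 252 were called. With 2 libraries per genotype, values without overlap also arise often where the genotypes do not differ. The share of all genes without overlap is not given here, and called genes are favoured to lack overlap by that choice.

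The count rests on a spread estimated from all 6 groups, and single libraries moved it. It was 47 without either wild-type apical library, 85 without either homozygous apical one, 256 and 259 without wild-type middle repeats 1 and 2, and 317 and 318 without the homozygous middle ones. Without homozygous basal repeat 1 it was 160 and without repeat 2 it was 75. With only the 4 basal libraries in the limma fit it was 0 (3132 genes at an unadjusted p under 0.05), with library weights 17, and with the repeat number as a block 195. A weight is lower where the repeats of a group vary more. The basal groups had the lowest weights, 0.476 for wild-type and 0.622 for homozygous libraries, and the wild-type apical group the highest, 2.72. By these weights a spread common to all groups would understate the standard errors and p-values of the basal turn.

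**Figure D2:**
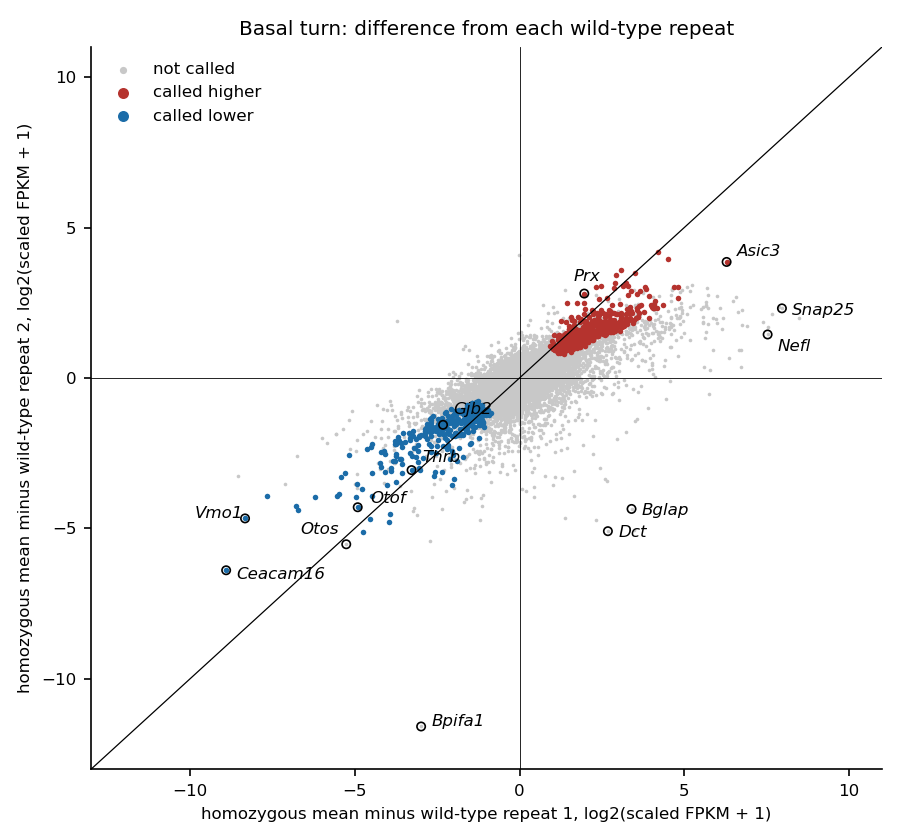
Log2 difference of the homozygous mean from wild-type repeat 1 (horizontal) and from wild-type repeat 2 (vertical) for each of 14636 genes, with genes called higher in red, called lower in blue and the rest in grey. In 148 of the 744 called genes the wild-type repeats were over 2-fold apart, which puts these genes off the diagonal. The other called genes lie nearer to it. *Snap25*, *Bglap*, *Dct* and *Bpifa1* also lie off it because the wild-type repeats differ.

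The tectorial membrane is the extracellular sheet into which the tallest stereocilia reach, and the largest fall among all called genes was in this list. Of 8 listed genes 5 passed the filter on low values, of which 4 were called lower and 0 higher. Their median log2 fold change was −4.22, or −3.92 and −4.24 against wild-type repeats 1 and 2, where the median of all genes tested was −0.01, or 0.02 and −0.02. *Otog*, the median gene of the main comparison, and *Otogl* passed the filter through the wild-type pair alone. By itself this favours a lower homozygous value. *Ceacam16*, an adhesion protein secreted into the membrane, had 2268 and 397 scaled FPKM in wild-type repeats and 10.1 and 1.02 in homozygous ones (log2 fold change −7.65, adjusted p = 0.00320). *Otoa*, which anchors the membrane to the spiral limbus, had 192 and 32.1 and 1.06 and 0.480 (log2 fold change −5.52, adjusted p = 0.00517). In both genes the wild-type repeats were several-fold apart and still far above the homozygous ones. *Otog*, a mucin-like glycoprotein of the membrane, had 15.5 and 24.1 and 0.126 and 0.0539 (log2 fold change −4.22, adjusted p = 0.000908), with close wild-type repeats. Its relative *Otogl* had 3.92 and 5.93 and 0.383 and 0.0469 (log2 fold change −2.28, adjusted p = 0.00514). The collagen *Col11a2*, also a cartilage gene, had 285 and 342 and 274 and 99.3, with homozygous repeat 1 near the wild-type level, and was not called. *Ceacam16* shares exon sequence with *Gm19345* on the opposite strand, and whether reads were counted by strand is not stated. Summed over the list, levels were 2766 and 816 scaled FPKM for the wild-type pair and 286 and 101 for the homozygous pair.

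Factors that specify hair cells were close to 0 in both homozygous libraries. Of 6 listed, 5 passed the filter, with 3 called lower. All 5 passed through the wild-type pair alone, which by itself favours a lower homozygous value, and their median was −2.74 (−2.36 and −2.62 against repeats 1 and 2). *Pou4f3*, needed for hair cell survival, had 13.3 and 7.77 scaled FPKM in wild-type repeats and 0 and 0.439 in homozygous ones (log2 fold change −3.22, adjusted p = 0.00441). *Gfi1*, which acts beside it, had 4.64 and 8.56 and 0.0918 and 0.112 (log2 fold change −2.74, adjusted p = 0.00451). The RNA-binding protein gene *Rbm24* had 10.5 and 6.94 and 0.351 and 0.242 (log2 fold change −2.88, adjusted p = 0.00763). For all 3 genes the wild-type repeats lay within 2-fold of each other and neither homozygous library reached 1. *Atoh1*, the first hair cell factor in development, did not pass the filter.

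In the hair bundle list 17 genes had a negative and 3 a positive log2 fold change, and few passed the test. The list covers the transduction channel, tip links and stereocilia, and 20 of 28 genes passed the filter. Of these, 2 were called lower and 0 higher, 6 lay over 2-fold below each wild-type repeat, and the median was −1.19 (−1.36 and −0.88 against repeats 1 and 2). Some members, *Ush1c* and *Myo15* among them, passed the filter through the wild-type pair alone. By itself this favours a negative sign. Beside *Ush1c*, the actin bundler *Espn* fell, from 10.2 and 15.95 scaled FPKM to 2.04 and 1.25 (log2 fold change −2.40, adjusted p = 0.00864). Of the 5 hair cell genes that the study names for the base, *Tmc1*, the pore of the transduction channel, had 6.52 and 3.81 and 0.245 and 0.879 (log2 fold change −1.97, adjusted p = 0.0307). *Myo15*, the motor that builds stereocilia, had 1.19 and 5.46 and 0.0421 and 0.0256 (log2 fold change −1.86, adjusted p = 0.0415). The bundle myosins *Myo3a* and *Myo3b* did not reach the filter, with 1.7996 and 0.174 in wild-type for *Myo3a*, listed at 0 in both homozygous libraries. *Myo3b* had 0.407 and 1.93 and 0.0780 and 0.123. All 4 were lower in both homozygous libraries, none was called, and the study chose them on these libraries. *Cib2*, the most abundant gene of the list over both genotypes, had 50.04 and 16.3 in wild-type repeats and 28.5 and 35.6 in homozygous ones. Its genotypes overlapped fully, and in wild-type repeat 2 *Ush1c* was above it. *Eps8l2*, an actin regulator of stereocilia, had 32.4 and 18.3 and 16.7 and 4.01. Listed genes summed to 207 and 184 scaled FPKM for the wild-type pair and 81.3 and 75.6 for the homozygous pair.

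At the inner hair cell synapse, all 9 listed genes passed the filter, and 2 were called lower, with a median of −0.40 (−0.68 and −0.21 against repeats 1 and 2). *Otof*, the calcium sensor for vesicle release and the fifth gene the study names, had 32.2 and 20.7 scaled FPKM in wild-type repeats and 0.0982 and 0.109 in homozygous ones (log2 fold change −4.60, adjusted p = 0.00155). *Cabp2*, which keeps the calcium channels of the synapse open, had 27.9 and 31.6 and 0.167 and 0.344 (log2 fold change −4.61, adjusted p = 0.00193). Both were near 0 in homozygotes, with wild-type repeats within 2-fold of each other. They passed the filter through the wild-type pair alone, which by itself favours a lower homozygous value. *Slc17a8*, the vesicular glutamate transporter of these cells, had 28.2 and 4.94 and 0.905 and 0.756 (log2 fold change −2.85, adjusted p = 0.0349). It also passed the filter through the wild-type pair alone. *Calb2*, a calcium buffer of hair cells and also of neurons, went the other way, with 33.6 and 139.8 and 1188 and 862 (log2 fold change 3.86, adjusted p = 0.0150), and it made up most of the homozygous sums. The list summed to 161 and 224 scaled FPKM for the wild-type pair and 1241 and 891 for the homozygous pair.

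Among outer hair cell genes, 6 of 9 passed the filter and 1 was called lower, with a median of −1.60 (−1.23 and −2.10 against repeats 1 and 2). *Tmprss3*, a protease needed for hair cell survival, had 77.5 and 16.7 scaled FPKM in wild-type repeats and 2.49 and 0.133 in homozygous ones (log2 fold change −4.23, adjusted p = 0.00710). *Ocm*, the calcium buffer of outer hair cells, had 21.2 and 46.6 and 3.15 and 0.388 (log2 fold change −3.76, adjusted p = 0.0407). *Chrna10*, a subunit of the receptor for efferent nerve input, had 1.86 and 8.95 and 0.0562 and 0.199 (log2 fold change −2.25, adjusted p = 0.0284). These 3 were lower in both homozygous libraries. *Chrna10* passed the filter through the wild-type pair alone, which by itself favours a lower homozygous value. All listed genes together gave 122 and 96.6 scaled FPKM for the wild-type pair and 17.3 and 25.5 for the homozygous pair.

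The supporting cell list was mixed. Of 14 genes 13 passed the filter, with 1 called higher, 1 lower and a median of −0.64 (−1.14 and −0.47). *S100a1*, a calcium-binding protein, was the most abundant gene of the list and fell from 1253 and 1056 scaled FPKM to 221 and 123 (log2 fold change −2.80, adjusted p = 0.00495). The Notch target *Hey2* rose from 2.67 and 3.52 to 11.7 and 13.2 (log2 fold change 1.72, adjusted p = 0.00458). The genotypes did not overlap in either gene. *Slc1a3*, a glutamate transporter of supporting cells and glia, had 66.9 and 32.9 and 26.1 and 34.2, and the cell cycle inhibitor *Cdkn1b* had 47.97 and 34.1 and 109 and 75.1 (log2 fold change 1.14, adjusted p = 0.0148). The factor *Gata3*, used by supporting cells and neurons, had 34.1 and 13.4 and 7.76 and 1.84 (log2 fold change −2.17, adjusted p = 0.0365). Added up, the list gave 1461 and 1195 scaled FPKM for the wild-type pair and 425 and 281 for the homozygous pair.

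Several of the largest falls lay outside these lists. *Vmo1*, which encodes a vitelline membrane protein, had 1532 and 120.1 scaled FPKM in wild-type repeats and 11.8 and 0.772 in homozygous ones (log2 fold change −6.50, adjusted p = 0.00898). The secreted ribonuclease gene *Rnase1* had 1076 and 79.4 and 10.003 and 1.52 (log2 fold change −5.80, adjusted p = 0.00958). The glutathione peroxidase gene *Gpx2* had 459 and 90.5 and 3.801 and 2.92 (log2 fold change −5.56, adjusted p = 0.00252). All 3 shared a shape, with wild-type repeat 1 highest, repeat 2 several-fold lower and the homozygous libraries lowest. The carboxylesterase gene *Ces1d* had 140.1 and 44.9 and 6.59 and 0.208 (log2 fold change −4.73, adjusted p = 0.00722). *Gm30191*, a predicted gene, had 57.1 and 17.5 and 0.367 and 0.218 (log2 fold change −4.67, adjusted p = 0.00328). In both, the genotypes did not overlap.

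Tight junctions seal the cochlear duct, and all 12 of their listed genes passed the filter, with 1 called lower, 0 higher and a median of −1.29 (−1.63 and −0.98). *Ildr1*, which builds junctions where 3 cells meet, fell from 17.7 and 9.45 scaled FPKM to 2.12 and 0.109 (log2 fold change −2.91, adjusted p = 0.00732). *Cldn9*, a claudin of the sensory epithelium, had 132 and 53.7 and 11.7 and 0.465 (log2 fold change −4.31, adjusted p = 0.0105), and *Cldn8* had 73.6 and 14.9 and 8.12 and 0.105 (log2 fold change −3.44, adjusted p = 0.0316). Both claudins were lowest in homozygous repeat 2, with no overlap of the genotypes. *Cldn11*, the claudin of strial basal cells and of myelin, had 359 and 273 and 309 and 349.6, with overlap. The sum was 736 and 449 scaled FPKM for the wild-type pair and 398 and 433 for the homozygous pair.

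**Figure D3:**
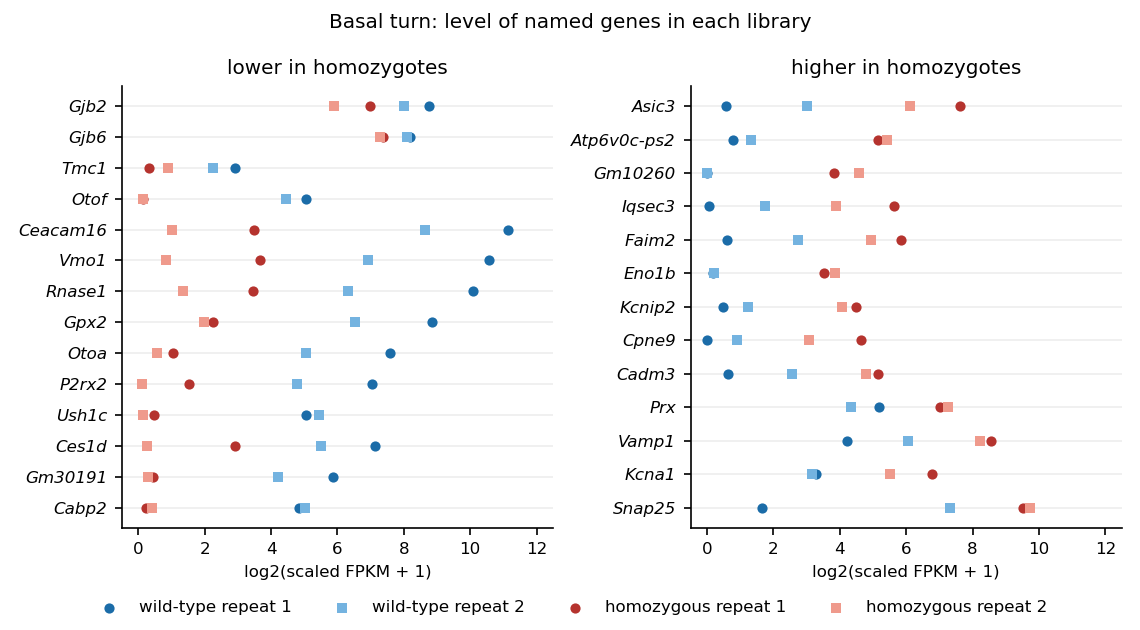
Level of named genes in each basal library as log2(scaled FPKM + 1), lower in homozygotes on the left and higher on the right, with wild-type in blue, homozygous in red, circles for repeat 1 and squares for repeat 2. In every gene shown the homozygous points lie on the same side of both wild-type points, and the largest rises and falls were chosen by that condition. The gap between the wild-type points is wide for *Ceacam16*, *Asic3* and *Snap25* and narrow for *Ush1c* and *Kcna1*.

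Among the rises, the Schwann cell and myelin list kept the most calls against wild-type repeat 2. All 15 listed passed the filter, with 5 called higher, 0 lower and a median of 2.25 (2.31 and 1.33). Against wild-type repeat 1 alone 5 were called higher, and against repeat 2 alone 4 were. *Prx*, a scaffold of the myelin sheath, lay 1.96 and 2.80 above repeats 1 and 2 on the log2 scale, and it shares exon sequence with *Gm15541* on the opposite strand. *Cldn19*, a claudin of Schwann cells, had 8.29 and 4.66 scaled FPKM in wild-type repeats and 43.8 and 46.6 in homozygous ones (log2 fold change 2.67, adjusted p = 0.00302). *Egr2*, the factor that starts myelination, had 2.698 and 3.21 and 20.2 and 18.5 (log2 fold change 2.37, adjusted p = 0.00136). In these 3 genes the wild-type repeats lay within 2-fold of each other and the homozygous ones were several-fold higher. *Mbp*, the most abundant of the list, had 328 and 3249.6 and 4045 and 6599.5. This myelin protein, shared with oligodendrocytes, was low in wild-type repeat 1 alone and was not called. The sum of the list was 1802 and 5973 scaled FPKM for the wild-type pair and 10028 and 15725 for the homozygous pair.

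Neuron genes were high in both homozygous libraries and split the wild-type repeats. Of 21 listed 20 passed the filter, with 1 called higher and 0 lower, and 13 lay over 2-fold above each wild-type repeat. The median was 2.94, or 4.33 against wild-type repeat 1 and 1.54 against repeat 2. *Nefh*, a neurofilament subunit of large axons, had 0.596 and 141 scaled FPKM in wild-type repeats and 647 and 498 in homozygous ones (log2 fold change 5.24, adjusted p = 0.0643). The smaller subunits were alike, with 2.27 and 187 and 599 and 619.9 for *Nefm* (log2 fold change 4.62, adjusted p = 0.0683). *Nefl* had 1.698 and 182 and 416 and 594 (log2 fold change 4.49, adjusted p = 0.0917). In all 3 the homozygous libraries exceeded wild-type repeat 2, wild-type repeat 1 was near 0, and none was called. *Ntrk3*, the receptor for neurotrophin-3 on spiral ganglion neurons, was called, with 5.65 and 6.36 and 16.3 and 16.6 (log2 fold change 1.32, adjusted p = 0.00744). Summed over the list, levels were 75.04 and 848 scaled FPKM for the wild-type pair and 2607 and 2996 for the homozygous pair, with *Nefm* the most abundant. Against wild-type repeat 1 alone 13 members were called higher, and against repeat 2 alone 0 were.

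Synaptic vesicle genes followed the same order of libraries. Of 34 listed 32 passed the filter, 9 were called higher and 0 lower, and 23 lay over 2-fold above each wild-type repeat. The median was 2.71 (3.45 and 1.83), with 24 called higher against wild-type repeat 1 alone and 0 against repeat 2 alone. *Vamp1*, a SNARE protein of vesicles, had 17.6 and 65.2 scaled FPKM in wild-type repeats and 373 and 297 in homozygous ones (log2 fold change 3.25, adjusted p = 0.00818). *Syn2*, which tethers vesicles, had 0.392 and 3.09 and 14.5 and 17.3 (log2 fold change 2.82, adjusted p = 0.00799). For both, wild-type repeat 2 was above repeat 1 and both homozygous libraries were above repeat 2. *Atp6v1g2*, a neuronal subunit of the proton pump, had 7.399 and 17.6 and 88.2 and 84.7 (log2 fold change 2.81, adjusted p = 0.00547). The 2 most abundant members were not called. *Snap25* had 738 and 844 in homozygous libraries (log2 fold change 5.14, adjusted p = 0.0501), and *Cplx1*, a regulator of release, had 1.103 and 97.6 in wild-type repeats and 419 and 437 in homozygous ones (log2 fold change 4.90, adjusted p = 0.0540). Both were near absent in wild-type repeat 1. Listed genes summed to 224 and 771 scaled FPKM for the wild-type pair and 3121 and 3168 for the homozygous pair. *Syn2* and *Atp6v1g2* each share exon sequence with a gene on the opposite strand, *Timp4* and *Nfkbil1*.

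Channels of the axon membrane gave 4 called higher and 0 lower of 16 genes that passed the filter among 17 listed, with 13 over 2-fold above each wild-type repeat and a median of 2.88 (3.57 and 1.98). *Kcna1*, a potassium channel subunit beside the nodes of Ranvier, had 8.81 and 7.95 scaled FPKM in wild-type repeats and 109 and 44.7 in homozygous ones (log2 fold change 2.92, adjusted p = 0.00565). *Kcna2*, which pairs with it, had 3.64 and 10.5 and 79.9 and 35.98 (log2 fold change 2.90, adjusted p = 0.00761). *Kcna6*, another of this family, had 0.904 and 1.42 and 7.55 and 6.37 (log2 fold change 1.89, adjusted p = 0.00690) and overlaps *Gm26673* on the opposite strand. *Kcna1* and *Kcna6* had wild-type repeats within 2-fold of each other. All listed genes together gave 34.2 and 162 scaled FPKM for the wild-type pair and 906 and 595 for the homozygous pair.

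The largest rises included genes of nerve cells. *Asic3*, an acid-sensing channel of sensory neurons, had 0.499 and 7.07 scaled FPKM in wild-type repeats and 194 and 68.9 in homozygous ones (log2 fold change 5.07, adjusted p = 0.00785), 6.28 and 3.86 above repeats 1 and 2. *Iqsec3*, an exchange factor of inhibitory synapses, had 0.0399 and 2.32 and 48.9 and 13.6 (log2 fold change 3.86, adjusted p = 0.00983). In both genes homozygous repeat 1 was highest and wild-type repeat 1 lowest. *Faim2*, an inhibitor of cell death in neurons, had 0.520 and 5.62 and 56.9 and 29.8 (log2 fold change 3.73, adjusted p = 0.00696). *Kcnip2*, a partner of voltage-gated potassium channels, had 0.391 and 1.34 and 21.4 and 15.6 (log2 fold change 3.42, adjusted p = 0.00754). The copine gene *Cpne9* had 0 and 0.865 and 23.6 and 7.397 (log2 fold change 3.40, adjusted p = 0.00821). All 3 were below 6 scaled FPKM in both wild-type libraries. *Cadm3*, a neuronal adhesion molecule, had 0.534 and 4.89 and 34.8 and 26.4 (log2 fold change 3.38, adjusted p = 0.00935), and it shares exon sequence with *Ackr1* on the same strand.

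Glia of the central nervous system, which reach into the root of the cochlear nerve, gave no call, though the oligodendrocyte sum was higher in both homozygous libraries. All 11 oligodendrocyte genes passed the filter with 0 called and a median of 1.83 (2.9997 and 0.27). The myelin protein gene *Mobp* had 1.16 and 175 scaled FPKM in wild-type repeats and 192 and 266 in homozygous ones, and *Mog* had 0.622 and 73.8 and 68.97 and 114. All 7 astrocyte genes passed, with 0 called and a median of 0.95 (1.79 and 0.11). *Gfap*, the astrocyte filament, had 1.35 and 122 and 149 and 250.5. In these genes wild-type repeat 1 stood apart at a low level and wild-type repeat 2 was nearer to the homozygous libraries. Summed levels were 371 and 613 scaled FPKM for the wild-type pair and 662 and 873 for the homozygous pair for oligodendrocytes and 687 and 1966 scaled FPKM for the wild-type pair and 1329 and 892 for the homozygous pair for astrocytes. *Cldn11*, also a gene of strial basal cells, gave 359 and 273 of the oligodendrocyte sums in wild-type repeats and 309 and 349.6 in homozygous ones.

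In the stria vascularis single libraries stood out within each genotype. Of 10 strial marginal cell genes all passed the filter and 0 were called, with a median of −0.71 (−0.14 and −1.82) and sums of 162 and 243 scaled FPKM for the wild-type pair and 149.7 and 7.6996 for the homozygous pair. *Lrp2*, an endocytic receptor, had 122 and 79.8 scaled FPKM in wild-type repeats and 45.8 and 0.0953 in homozygous ones (log2 fold change −3.80, adjusted p = 0.0776). *Esrrb*, a nuclear receptor of these cells, had 0.202 and 37.4 and 26.2 and 3.58, and *Kcne1* had 0 and 60.8 and 35.9 and 0. For *Kcne1* and *Esrrb*, wild-type repeat 1 and homozygous repeat 2 were the low libraries, 1 of each genotype. Of 11 genes of melanocytes and strial intermediate cells 9 passed and 0 were called, with a median of −0.39 (1.01 and −1.05) and sums of 53.8 and 621 scaled FPKM for the wild-type pair and 243 and 75.8 for the homozygous pair. *Dct* led them, with 158 and 0.0646 in the homozygous repeats. *Kcnj10*, the potassium channel behind the endocochlear potential, had 32.4 and 65.8 and 37.4 and 32.6, with overlap.

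The summed level of spiral ligament fibrocyte genes was lower in both homozygous libraries, most of all in repeat 2, though single genes varied. All 9 passed the filter and 0 were called, 3 lay over 2-fold below each wild-type repeat, and the median was −2.17 (−2.40 and −1.94). *Coch*, the main matrix protein of these cells, had 4020.4 and 3115 scaled FPKM in wild-type repeats and 1116 and 425 in homozygous ones (log2 fold change −2.36, adjusted p = 0.0243). *Otos* had 2598 and 3129 in wild-type (log2 fold change −5.39, adjusted p = 0.0653). *Car3*, a carbonic anhydrase, had 333 and 423 and 518 and 25.3, with homozygous repeat 1 above both wild-type libraries. *Slc4a11*, a membrane transporter, had 1.18 and 37.8 and 43.5 and 0.555, again low in wild-type repeat 1 and homozygous repeat 2. Added up, the list gave 7433 and 7003 scaled FPKM for the wild-type pair and 2772 and 493 for the homozygous pair.

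On the potassium route from hair cells back to the stria, all 16 genes passed the filter, with 1 called lower and a median of −0.34 (0.14 and −0.94). *Kcnj16*, an inward-rectifier potassium channel, fell from 128 and 47.9 scaled FPKM to 6.14 and 1.501 (log2 fold change −4.24, adjusted p = 0.00439). *Atp1b1*, a beta subunit of the sodium-potassium pump, had 298 and 388 and 694 and 558 (log2 fold change 0.87, adjusted p = 0.0438) and was not called. The sum of the list was 1539 and 2072 scaled FPKM for the wild-type pair and 2364 and 1623 for the homozygous pair.

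The connexin list includes *Gjb2* and *Gjb6*, which make up most of its sum and are the 2 genes with a negative log2 fold change, against 7 with a positive one. Of 14 listed 9 passed the filter, with 1 called higher, 0 lower and a median of 1.13, which was 2.54 against wild-type repeat 1 and 0.19 against repeat 2. *Gjc3*, a connexin of myelinating glia, rose from 9.82 and 21.6 scaled FPKM to 61.3 and 62.8 (log2 fold change 2.01, adjusted p = 0.00700). *Gja1*, a connexin of bone, glia and connective tissue, had 4.85 and 78.2 and 32.7 and 65.01, lowest in wild-type repeat 1. The sum was 749.6 and 659 scaled FPKM for the wild-type pair and 446 and 418 for the homozygous pair.

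Genes of the ATP-evoked calcium signal that travels through connexin-coupled supporting cells gave 1 called higher and 2 lower of 19 that passed the filter among 20, with a median of −0.06 (−0.09 and −0.14), which was 0.02 with libraries rescaled to an equal sum. *P2rx2*, the ATP-gated channel of hair cells and supporting cells, fell from 131 and 26.6 scaled FPKM to 1.88 and 0.0846 (log2 fold change −5.09, adjusted p = 0.00470). *Itpr1*, the receptor that releases stored calcium, fell from 57.2 and 40.9 to 17.2 and 6.44 (log2 fold change −2.09, adjusted p = 0.00914). *Plcb1*, a phospholipase that makes its ligand, rose from 1.07 and 1.99 to 5.59 and 4.64 (log2 fold change 1.30, adjusted p = 0.00754). In all 3 the genotypes did not overlap. The calcium pump gene *Atp2a2* had 56.5 and 61.4 and 130.3 and 78.5 (log2 fold change 0.77, adjusted p = 0.0467). The chloride channel gene *Ano1* had 1.38 and 9.35 and 2.61 and 2.49, high in wild-type repeat 2 alone. The sum was 443 and 277 scaled FPKM for the wild-type pair and 335 and 238 for the homozygous pair.

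Thyroid hormone drives the final maturation of the cochlea, and 8 of 9 listed genes passed the filter, with a median of −0.59 (−0.93 and −0.43). Of these 8 genes, 3 were called lower and 0 higher, against 2.11% and 2.97% of all genes tested. *Thrb*, the receptor needed for hearing, had 8.69 and 7.36 scaled FPKM in wild-type libraries and is listed at 0 in both homozygous ones (adjusted p = 0.000103). It was also at or near 0 in the other turns of the homozygotes, with 0 and 0 in the apical and 0.0363 and 0.00833 in the middle turn. *Slco1c1*, a transporter of thyroid hormone, fell from 207 and 137 to 55.4 and 40.7 (log2 fold change −1.80, adjusted p = 0.00517). *Slc16a10*, another transporter, fell from 4.33 and 3.39 to 1.23 and 0.907 (log2 fold change −1.23, adjusted p = 0.00617). The second receptor, *Thra*, had 42.5 and 38.2 and 41.9 and 42.3, a narrow range with overlap. The hormone-responsive gene *Klf9* had 86.04 and 55.8 and 53.97 and 55.7. The sum was 397 and 282 scaled FPKM for the wild-type pair and 187 and 169 for the homozygous pair.

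Bone lists mainly marked wild-type repeat 2. All 16 osteoblast genes passed the filter and 0 were called, and the median of −0.46 was made of 1.25 against wild-type repeat 1 and −1.48 against repeat 2. *Spp1*, a matrix protein and the most abundant member, had 855 and 2807 scaled FPKM in wild-type repeats and 1183 and 1049 in homozygous ones. The collagen *Col1a2* had 277 and 559 and 209 and 211. The homozygous libraries lay between the wild-type repeats for *Spp1* and below both for *Col1a2*. Of 11 osteoclast genes 6 passed, with 0 called and a median of −0.85 (−0.20 and −1.13), and the protease gene *Ctsk* had 21.8 and 50.2 and 13.6 and 18.1. Of 14 cartilage genes 10 passed, with 0 called and a median of −1.15 (−1.69 and −1.13). *Cnmd*, a cartilage matrix protein, had 1499 and 205 and 164 and 13.9 (log2 fold change −3.49, adjusted p = 0.0551). *Col2a1*, the main cartilage collagen, had 299 and 376 and 214 and 124 (log2 fold change −1.04, adjusted p = 0.0453). Both were lowest in homozygous repeat 2. *Hapln1*, the 1 tested cartilage gene with a positive log2 fold change, had 0 and 4.45 and 15.96 and 12.2 (2.68, adjusted p = 0.0297). Summed levels were 1489 and 6414 scaled FPKM for the wild-type pair and 1886 and 1638 for the homozygous pair for osteoblasts, 34.6 and 102 scaled FPKM for the wild-type pair and 25.8 and 26.8 for the homozygous pair for osteoclasts and 2806 and 1421 scaled FPKM for the wild-type pair and 843 and 308 for the homozygous pair for cartilage.

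Summed levels of the blood and marrow lists were lower in both homozygous libraries, without a call. Over all genes tested 3.19% lay over 2-fold below each wild-type repeat. Of 12 erythroid genes 7 passed the filter, with 5 over 2-fold below each wild-type repeat and a median of −2.89 (−2.51 and −2.996). The globin gene *Hbb-bs* had 1757 and 3404 scaled FPKM in wild-type repeats and 272 and 315 in homozygous ones (log2 fold change −3.06, adjusted p = 0.0525). Of 12 granulocyte genes 11 passed, with 8 over 2-fold below each wild-type repeat and a median of −1.88 (−1.64 and −2.68). *S100a9*, a calcium-binding protein of neutrophils, had 158 and 902 and 46.6 and 69.1 (log2 fold change −2.71, adjusted p = 0.267). The homozygous repeats were close to each other in both genes. Of 9 B lineage genes 4 passed, with 0 called and a median of −1.28 (−0.60 and −2.18), and the immunoglobulin gene *Ighm* had 17.3 and 85.5 and 16.5 and 17.8. Sums were 3180.3 and 4994 scaled FPKM for the wild-type pair and 436 and 524 for the homozygous pair for erythroid genes, 467 and 2116 scaled FPKM for the wild-type pair and 133 and 182 for the homozygous pair for granulocytes and 45.9 and 134 scaled FPKM for the wild-type pair and 35.9 and 36.5 for the homozygous pair for the B lineage.

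Macrophage and vessel lists gave 1 call between them. All 14 macrophage genes passed the filter with 0 called and a median of −0.53 (−0.14 and −0.77), and the complement gene *C1qb* had 38.5 and 62.3 scaled FPKM in wild-type repeats and 27.6 and 47.9 in homozygous ones. Their sum was 296 and 901 scaled FPKM for the wild-type pair and 197 and 314 for the homozygous pair, where *Lyz2*, the lysozyme of myeloid cells, with 87.1 and 462 in wild-type, carried wild-type repeat 2. Of 11 MHC class II genes 6 passed, with 0 called, a median of 0.34 (1.22 and −0.80) and a sum of 21.3 and 66.8 scaled FPKM for the wild-type pair and 24.8 and 54.2 for the homozygous pair. All 15 vessel genes passed, with 1 called lower, a median of −0.22 (−0.27 and 0.08) and a sum of 213 and 181 scaled FPKM for the wild-type pair and 148 and 151 for the homozygous pair. *Emcn*, a sialomucin of capillaries and veins, fell from 41.9 and 39.1 to 16.8 and 9.67 (log2 fold change −1.59, adjusted p = 0.00693). The pericyte gene *Rgs5* had 43.9 and 35.1 and 33.9 and 33.3, and the endothelial cadherin *Cdh5* had 19.5 and 15.8 and 12.6 and 24.8. Of the vessel genes named, *Emcn* alone parted the genotypes widely.

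Lists for tissues outside the cochlear duct mostly marked single libraries. Of 17 genes of motile ciliated epithelium 6 passed the filter, with 0 called, a median of −1.27 (−0.16 and −2.32) and a sum of 11.9 and 156 scaled FPKM for the wild-type pair and 14.96 and 10.1 for the homozygous pair. *Dynlrb2*, a dynein light chain gene, had 1.91 and 32.7 scaled FPKM in wild-type repeats and 0.424 and 0.127 in homozygous ones (log2 fold change −2.97, adjusted p = 0.0428). Of 6 secretory genes 2 passed, with 0 called and a median of −4.07 (−1.31 and −6.83), and *Bpifa1* made up nearly all of the wild-type sums. The list summed to 8.896 and 3424 scaled FPKM for the wild-type pair and 0.361 and 3.198 for the homozygous pair. Of 6 vestibular genes 4 passed, with 0 called, a median of −1.65 (−1.57 and −1.39) and a sum of 77.8 and 17.1 scaled FPKM for the wild-type pair and 8.62 and 8.22 for the homozygous pair. *Oc90*, the main otoconial protein, had 63.7 and 3.99 and 0.257 and 0 (log2 fold change −4.002, adjusted p = 0.0343), highest in wild-type repeat 1. *Otop1*, the 1 tested member with a positive log2 fold change, had 3.03 and 1.26 and 6.72 and 7.24 (1.40, adjusted p = 0.0441). It made up most of the homozygous sums. Of 15 skeletal muscle genes 5 passed, with 0 called and a median of −0.52 (−0.63 and −0.58). Their sum, 45.4 and 258 scaled FPKM for the wild-type pair and 325 and 855 for the homozygous pair, was mostly *Pvalb*, a calcium buffer that neurons share, with 35.3 and 250.01 and 322 and 848.

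Stress and death genes gave no call. With 2.11% of all genes tested called lower and 2.97% higher, 0 calls in lists this short do not show a lack of difference. Of 13 immediate early and heat shock genes 12 passed the filter, with 0 called, a median of −1.05 (−0.30 and −1.17) and a sum of 86.6 and 229.9 scaled FPKM for the wild-type pair and 73.6 and 78.3 for the homozygous pair. *Fos*, induced within minutes of stimulation or handling, had 1.85 and 31.5 scaled FPKM in wild-type repeats and 1.95 and 3.72 in homozygous ones, and *Jun* had 6.78 and 21.9 and 25.7 and 18.2. *Fos* was high in wild-type repeat 2 alone. Of 15 apoptosis genes 14 passed, with 0 called, a median of −0.33 (−0.22 and −0.29) and a sum of 274 and 258 scaled FPKM for the wild-type pair and 215 and 198 for the homozygous pair. The cell cycle inhibitor *Cdkn1a*, a target of p53, had 62.1 and 64.8 and 54.6 and 42.5, and the survival gene *Bcl2l1* had 69.02 and 40.95 and 39.04 and 30.9. Both were slightly lower in the homozygous libraries.

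**Figure D4:**
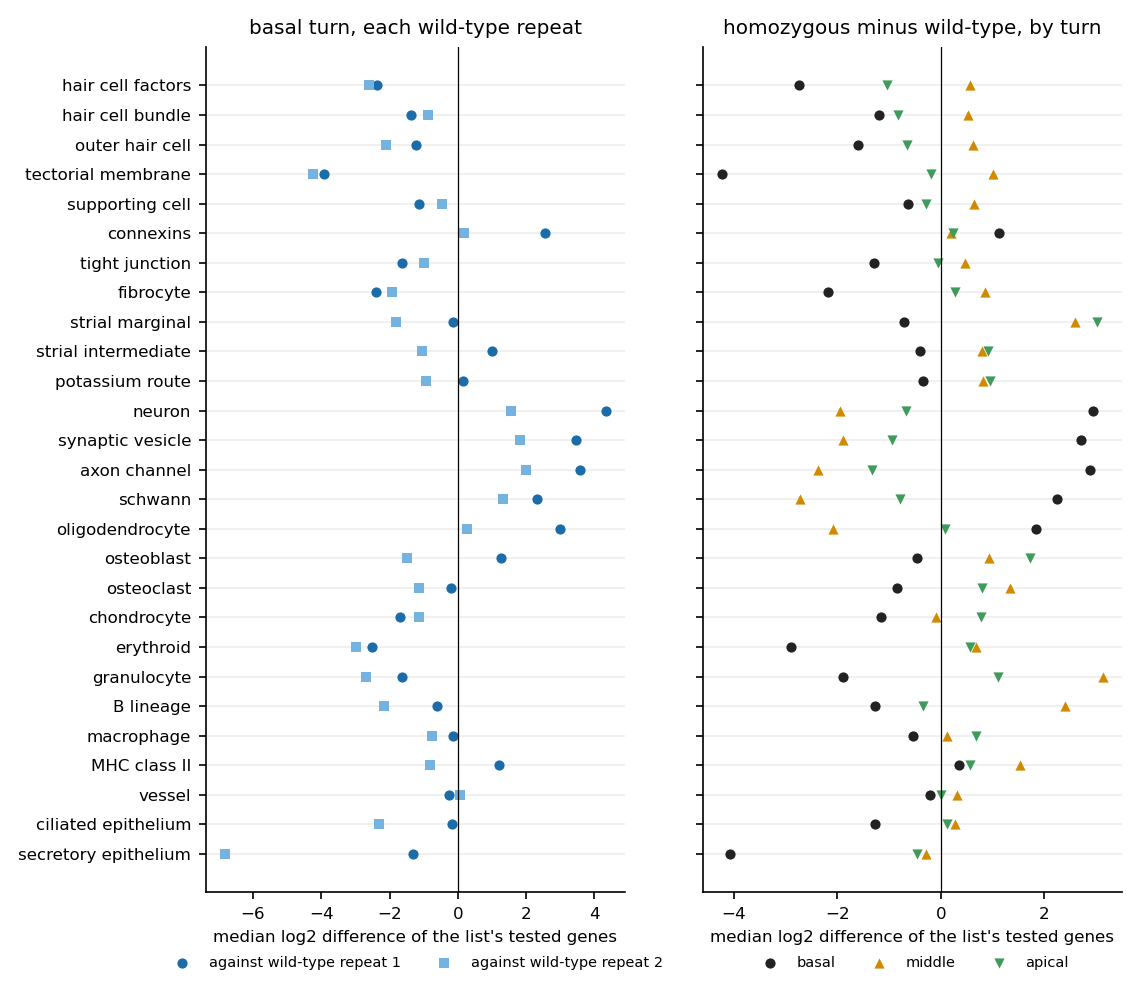
Median log2 difference, homozygous minus wild-type, over the tested genes of each list, on the left in the basal turn against each wild-type repeat and on the right in the basal, middle and apical turns. Neuron, synaptic vesicle, axon channel and Schwann lists lie right of 0 in the basal turn and left of 0 in the middle and apical turns, and the hair cell lists lie left of 0 in the basal turn and right of it in the middle turn.

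The neighbouring turns were used to ask whether the basal difference was shared. Between genotypes 12 genes were called higher (0.0820%) and 16 lower (0.109%) in the middle turn, 28 in all, and 9 higher (0.0615%) and 3 lower (0.0205%) in the apical turn, 12 in all, against 744 in the basal turn. Library weights turned this order, with 17 in the basal, 59 in the middle and 211 in the apical turn, and without wild-type basal repeat 1 the basal count of 38 was close to the middle one of 34. With 1 library left out these counts were 5 (without homozygous middle repeat 1) to 41 (without wild-type basal repeat 2) in the middle and 2 (without homozygous basal repeat 1 or 2) to 17 in the apical turn. The test of the difference itself, basal minus middle genotype difference in the same limma fit, called 1059 genes higher (7.24%) and 441 lower (3.01%). The basal minus middle count of 1500 was 323 (without wild-type middle repeat 1) to 2097 (without wild-type basal repeat 2) with 1 library left out. Against the apical turn it called 119 higher (0.813%) and 59 lower (0.403%), 178 in all. This count was 0 in limma without any 1 of the apical libraries (3155 to 3916 genes at an unadjusted p under 0.05), 0 with the repeat number as a block (4331) and 1103 without wild-type basal repeat 2. Synaptic vesicle genes had medians of 2.71 in the basal, −1.88 in the middle and −0.95 in the apical turn, and 20 of 32 differed between basal and middle turns. The same test called 11 of 15 Schwann cell genes, with medians of 2.25 and −2.72, 11 of 16 axon channel genes (2.88 and −2.37) and 7 of 20 neuron genes (2.94 and −1.95), all higher in the basal turn. So the medians of these nerve lists were above 0 at the base and below 0 in the middle, where the lists carry no test. Hair cell factors had medians of −2.74, 0.57 and −1.03 in the basal, middle and apical turns, with 3 of 5 called lower in the basal than the middle turn. All 5 passed the filter through the wild-type basal pair alone, as did some members of the hair bundle and tectorial membrane lists. By itself this favours a lower difference in the basal than the middle turn. Hair bundle genes had −1.19, 0.52 and −0.83, with 4 of 20 called lower. In the tectorial membrane list, with −4.22, 1.01 and −0.19, 2 of 5 were called lower.

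Single genes show the levels behind these differences. *Ush1c* had 11.8 and 18.6 scaled FPKM in wild-type middle pieces and 16.6 and 33.7 in homozygous ones (basal minus middle log2 difference −5.58, adjusted p = 0.00145). *Otof* had 9.42 and 25.2 and 14.2 and 19.3 there (−4.69, adjusted p = 0.00243). In the middle turn, then, homozygous libraries reached the wild-type range for both hair cell genes. *Prx* had 87.6 and 111 and 17.9 and 20.2 in the middle turn, the reverse of the base (4.70, adjusted p = 0.00106). *Asic3* had 50.8 and 73.2 in wild-type middle pieces and 21.1 and 4.82 in homozygous ones (7.52, adjusted p = 0.00424). For both genes the homozygous basal and the wild-type middle libraries were the high ones. Whether the cutting planes or the library labels of basal and middle pieces differ between genotypes was not tested. *Gjb2* had 139.7 and 268 in wild-type middle pieces and 256 and 451 in homozygous ones (−2.75, adjusted p = 0.0182). In the apical turn it had 248 and 254 and 332 and 376, higher in homozygotes (basal minus apical log2 difference −2.43, adjusted p = 0.0425). Neither difference between turns passed the threshold. *Gjb6* had 124 and 176 and 285 and 448 in the middle turn, and its basal minus middle difference did pass (−2.08, adjusted p = 0.00685).

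**Figure D5:**
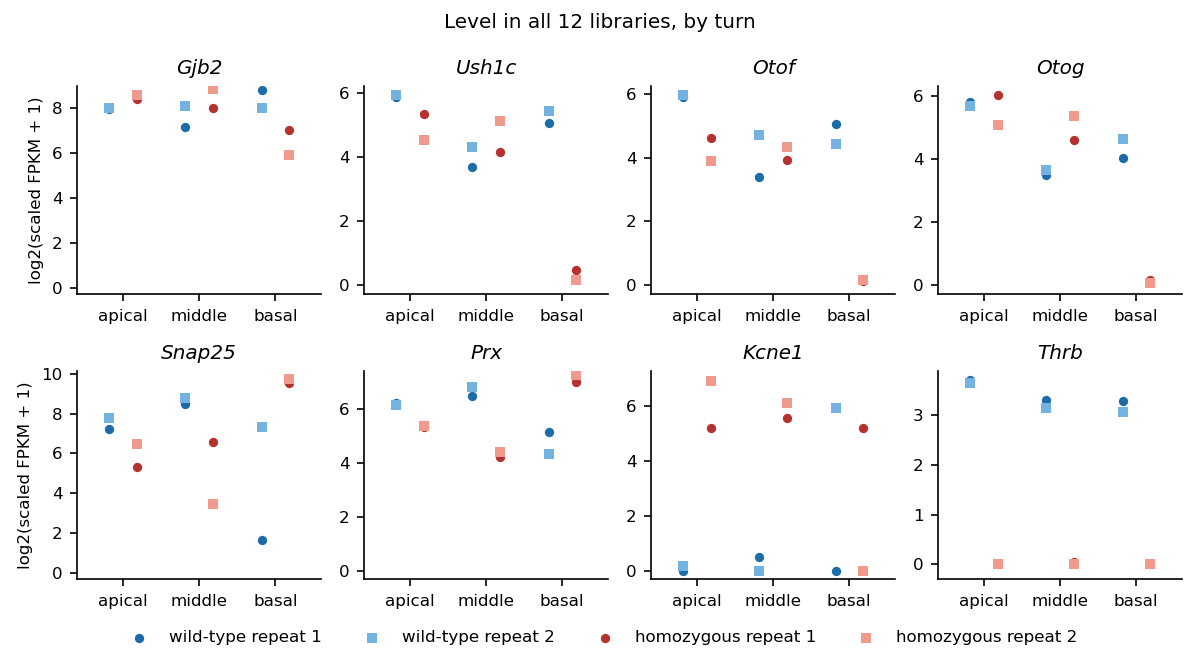
Level of 8 genes as log2(scaled FPKM + 1) in all 12 libraries by turn, with wild-type in blue, homozygous in red, circles for repeat 1 and squares for repeat 2. *Ush1c*, *Otof* and *Otog* lie near 0 in the homozygous basal libraries, *Snap25* and *Prx* trade places between the middle and basal turns, and *Thrb* is at or near 0 in every homozygous library.

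A small set of called genes differed alike in every turn. *Eif2s3y*, a translation factor gene on the Y chromosome, had 30.2 and 14.4 scaled FPKM in wild-type basal libraries and is listed at 0 in both homozygous ones. *Gm10260*, annotated as protein coding, had 13.1 and 22.7 in the homozygous pair and no more than 0.0746 in any wild-type library. The processed pseudogene *Atp6v0c-ps2* had 0.733 and 1.51 in wild-type repeats and 34.4 and 42.1 in homozygous ones (log2 fold changes of 4.23 in the basal, 3.44 in the middle and 3.86 in the apical turn). *Eno1b*, a copy of an enolase gene, had 0.130 and 0.154 and 10.5 and 13.5 (3.50, 3.42 and 3.75). These genes, with *Thrb*, held the same order of genotypes at the base as elsewhere.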

How the data were processed

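RNA-seq libraries of the basal turn (2 wild-type, 2 homozygous) were compared, with the 8 libraries of the other turns in the same fit. The authors trimmed reads with fastp 0.20.0, aligned them to mm10 with STAR 2.7.3a and deposited FPKM from StringTie 2.0. Their counts and DESeq2 results were not used. The deposited FPKM were divided by median-of-ratios factors (0.917 to 1.06, over 11552 genes at 1 FPKM or more in all 12 libraries) and tested as log2(scaled FPKM + 1) with limma 3.58.1 (R 4.3.3, trended eBayes, two-sided, degrees of freedom 6 residual and 2.72 prior, Benjamini-Hochberg over 14636 genes), after a check on simulated data. Figures used matplotlib 3.10.9 in Python 3.11.15. Sequences came from GENCODE transcripts of GRCm38 and the study's oligo table.

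The members and the 35 gene lists were chosen with earlier results of these data known, and lists carry no test. Named genes were *Gjb2*, *Gjb6*, 5 genes of the study, the 10 largest rises and falls among called genes (mean in the higher genotype of 5 scaled FPKM or more, homozygous libraries over 2-fold beyond each wild-type repeat), 4 checks of the mice, and in each list the 3 most abundant, up to 4 called and the 2 differing most between wild-type repeats. Not all are printed, some being left out as not reported here, and *Atoh1* was added after its values were seen. Alternatives varied pseudocount, filter, scaling, libraries, weights, trend, a repeat block and thresholds.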

Additional observations from a re-analysis of the deposited data

Results flagged for a closer look

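The genotype difference of the basal turn differed from that of the middle turn in 1500 genes and from that of the apical turn in 178 genes by limma's test of the difference itself, which is why both counts appear here. The apical count was 0 in limma with the repeat number as a block (4331 genes at an unadjusted p under 0.05) and 0 without any 1 of the apical libraries (3155 to 3916). Among the genes named for the largest basal rises and falls, the largest such differences were in *Asic3*, with a basal minus middle log2 difference of 7.52, and *Iqsec3*, with 6.45. Both were called higher in homozygotes at the base, and their middle log2 fold changes of −2.45 and −2.59 did not pass the test. Neuron markers moved with them, with summed scaled FPKM in the middle turn of 1451 and 1559 scaled FPKM for the wild-type pair and 394 and 114 for the homozygous pair, and their part in these differences was not tested.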

How the results depend on the processing

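The basal count of 744 became 89 with no filter, 17 with library weights, 195 with the repeat number as a block and 1982 at an adjusted p under 0.05. It was 0 in limma on only the 4 basal libraries (3132 genes at an unadjusted p under 0.05) and 0 when these were also scaled alone (3138). Leaving out 1 library gave 38 (without wild-type basal repeat 1) to 1611 (without repeat 2). A library left alone in its group is assumed to vary like the other groups, and without a basal library the filter was applied anew to those remaining. With an equal sum, the split of 435 higher and 309 lower became 611 and 165. The basal minus middle count of 1500 became 296 with no filter, 983 with weights, 3190 at an adjusted p under 0.05 and 323 to 2097 with 1 library left out, and its paired block value was 1061. Its split of 1059 and 441 became 949 and 622 with FPKM as deposited and 1028 and 259 with an equal sum. The basal minus apical count of 178 became 108 and 105 with pseudocounts of 0.1 and 0.01, 13 with no filter, 298 with a filter of 5 FPKM, 477 with an equal sum (426 higher, 51 lower), 89 with weights, 1822 at an adjusted p under 0.05, 0 in limma with the block (4331 at an unadjusted p under 0.05) and 0 to 1103 with 1 library left out. The middle count of 28 and the apical count of 12, whose alternatives were run after their values were seen, became 59 and 211 with weights and 470 and 101 at an adjusted p under 0.05. The middle count was also 16 with a pseudocount of 0.01, a filter of 5 FPKM or an equal sum, 15 with no filter, 12 with the block and 5 to 41 with 1 library left out, and the apical count 29 with the filter over all 12 libraries, 22 without a trend and 2 to 17 with 1 library left out. The causes were not tested. Interactions have no value with only basal libraries. *Gjb2* passed at an adjusted p under 0.05 (−1.94) and lay between −2.49 and −1.39 with 1 library left out. Many alternatives leave the basal log2 fold change itself unchanged, and most genes followed were chosen as called. A change of sign was therefore unlikely from the outset. Of 56 other named genes, 0 reversed under any alternative. Of these, 53 were called, and 53 lost their call with only the basal libraries, 45 with library weights, 28 with the block and, without wild-type basal repeat 1, 34 of the 42 still tested. Depth is unknown, so its limit cannot be given.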
